A study of Homo sapiens with 3 samples.

Results

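The genes described here are noncoding RNA genes and transcribed pseudogenes that were detected in PLC, a cell line that the labels class as human liver cancer. A gene was a member when RefSeq lists noncoding (NR) transcripts for its symbol and no coding (NM) transcript, and when its rows summed to a mean of at least 1 CPM over the 3 libraries. Symbols that start with ZNF, ZFP, ZKSCAN, ZSCAN or SLC were left out, which removed 10 genes that would otherwise have passed. This gave 94 members of 4995 candidate symbols, in a table with 12034 named symbols and 28381 features in all. CPM is the deposited count scaled to the library total, here after TMM scaling, which corrects for differences in library composition. The members were thus selected on their measured level, averaged over the same libraries that are compared below. The libraries were labelled NTC, shHKDC1 and shRBBP5, with 1 library each, and the design asks whether HKDC1 or RBBP5 controls gene expression. HKDC1 is a hexokinase-family protein, and RBBP5 is a core subunit of the complexes that methylate histone H3 at lysine 4. In the latter 2 libraries the named gene was knocked down, sh standing for short hairpin RNA. All 3 cultures grew in DMEM with serum. The labels give no hairpin sequence and do not say whether a library came from a clone or a pool. Neither targeted gene had a row of its own, so the knockdowns could not be checked on their targets here.

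Long noncoding RNAs (lncRNAs) are transcribed and often spliced like messenger RNAs but carry no recognised open reading frame. Some act on neighbouring genes or chromatin, some are precursors of microRNAs, and many have no known role. A transcribed pseudogene is a disabled copy of a coding gene that still makes RNA, and its sequence can be close enough to the parent gene that short reads fit both. Antisense lncRNAs (names ending -AS) lie across a coding gene on the other strand, and divergent transcripts (-DT) start beside a coding gene's promoter and run away from it.

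By RefSeq biotype and name, 42 members were transcribed pseudogenes and 52 were lncRNAs. The lncRNAs comprised 27 with LINC names, 7 antisense, 5 divergent, 4 microRNA host genes, 3 with LOC names and 6 others. Every RefSeq transcript of the gene had a row of its own in 92 members. The exceptions were PCAT7, with 4 of 14, and MIR9-3HG, with 4 of 41, so their sums may miss counts that stand in anonymous loci. Whether anonymous loci also hold counts of the other 92 members was not examined. Anonymous loci, numbered by the transcript assembly, held 99.43% to 99.6% of all counts, and the members held 0.0256% in NTC, 0.0175% in shHKDC1 and 0.0214% in shRBBP5. Summed over members, the level was 236.8 CPM in NTC, 195.8 CPM in shHKDC1 and 207.6 CPM in shRBBP5. Members were low: the median of their mean CPM was 1.7, against 2.78 for the 984 protein-coding named genes and 28.1 for the 12355 anonymous loci that passed the same threshold. At least 1 CPM was reached by 84 members in NTC, 68 in shHKDC1 and 79 in shRBBP5, and by 56 in all 3 libraries. Just inside the threshold were RALGAPA1P1 at a mean of 1.011 CPM, FZD4-DT at 1.01 and LHX1-DT at 1.009. Just outside were CD99P1 at 0.9977, LOC105376917 at 0.9814 and LINC00543 at 0.9588.

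Depth was lowest in shHKDC1. Small counts piled up at 4, with 332 NTC rows at 3, 525 at 4 and 235 at 5, so 4 units were taken as 1 sequenced fragment. On that assumption the libraries held 40437578, 28889040 and 38633478 fragments in NTC, shHKDC1 and shRBBP5. A member rested on a median of 83 fragments in NTC, 39 in shHKDC1 and 63 in shRBBP5, and on at least 31, 6 and 16 respectively. The level of 3 fragments was 0.0685 CPM in NTC, 0.116 CPM in shHKDC1 and 0.0752 CPM in shRBBP5. With 1 library per group there was no replicate and no test between groups. Members are called higher or lower here where libraries differed by at least 2-fold (a log2 ratio of 1 or more in size) and the exact 95% Clopper-Pearson interval of that ratio left out 0. That interval covers counting error only, and it stands in brackets after the log2 ratios below. Where 3 levels are given for a gene without library names, they stand in the order NTC, shHKDC1, shRBBP5. A difference between libraries can be a difference between the treatments or between single cultures, and these cannot be told apart. In these bulk libraries, fewer cells with an RNA and less of it per cell cannot be told apart either.

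Liver identity could not be checked on most of its markers, since 1 of 15 hepatocyte and liver cancer genes had a row of its own. This was FGB, the fibrinogen beta chain, at 2.41 CPM in NTC, 0.6 CPM in shHKDC1 and 2.3 CPM in shRBBP5. Of 10 markers of fibroblasts, leukocytes and endothelium, 8 had rows and 0 reached a mean of 1 CPM. Their summed level was 0.36 CPM in NTC, 0.842 CPM in shHKDC1 and 0.295 CPM in shRBBP5, and whether this moved with any member was not tested.

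Several lists of noncoding RNAs familiar from other work had few or no members. Members were also rare among all candidates, 94 of 4995, so 0 among 4 or 5 genes with rows shows nothing particular to a list. Of 37 snoRNA host genes, 4 had rows and 0 were members. Structural and catalytic RNAs were picked by name pattern together with microRNA genes, and this list had 1016 symbols with rows and 0 members. Why none of them reached the threshold was not tested. Of 11 lncRNAs linked to p53, 5 had rows and 0 were members. Of 56 well studied regulatory lncRNAs, 25 had rows, among them HOTAIR, MEG3 and KCNQ1OT1, and 2 were members, HOTTIP and TTN-AS1. Counts of a listed gene that has no row may stand in anonymous loci, which were not named here.

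Against NTC, the shHKDC1 library had 7 members called higher and 21 called lower, with 66 neither. The 7 higher ones were LINC00673, TPRXL, LINC02615, WASIR2, LINC00648, FRG1HP and LINC00910. The lowest ratios belonged to LOC107985532, AHCTF1P1, FER1L4, LRRC37A6P, LINC02298 and LINC00641. The share called lower was 22.3%, against 12.1% of all 13444 features and 23.5% of the protein-coding named genes. The share called higher was 7.45%, against 7.96% of all features and 8.13% of the coding named genes. Both shares lay near those of the coding named genes, so the counts show nothing particular to noncoding genes. The median log2 ratio was −0.40 over the members, −0.40 over the coding named genes and −0.03 over all features.

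That split depended on scaling and on the level threshold. Scaled by total counts alone, 2 members were called higher and 33 lower, so 5.71% of calls were higher against 25% with TMM, while the median over all features moved from −0.03 to −0.31. Over all 1488 candidates with a count in any library, 108 were called higher and 81 lower. The shares over all features without a threshold were not computed, so this split cannot be read as particular to noncoding genes. The threshold itself bears on the calls, because 15 of the 21 lower members were under 1 CPM in shHKDC1 and had passed through the other libraries. Similarly, 3 of the 7 higher members were under 1 CPM in NTC. Among the 66 uncalled members the interval lay above 0 for 6 and below 0 for 17, and it held 0 for 43.

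**Figure D1:**
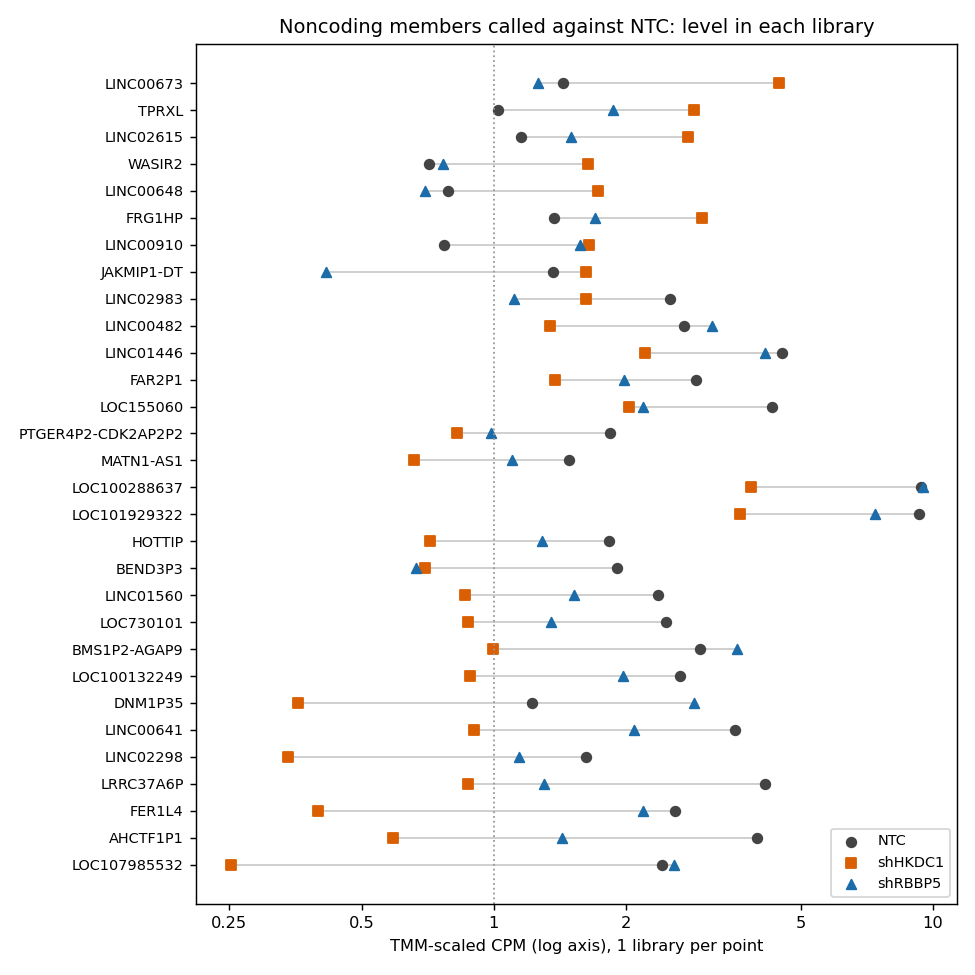
Level of the 30 members called in either knockdown library against NTC, 1 point per library, as TMM-scaled CPM on a log axis. The dotted line marks 1 CPM; LOC107985532 stood at 0.252 CPM in shHKDC1 against 2.42 in NTC and 2.57 in shRBBP5, and LINC00673 at 4.47 in shHKDC1 against 1.44 and 1.26.

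The shRBBP5 library differed less from NTC. In it 2 members were called higher, DNM1P35 and LINC00910, and 5 lower, JAKMIP1-DT, LRRC37A6P, BEND3P3, AHCTF1P1 and LINC02983, with 87 neither. Of the 5 lower members, 2 were under 1 CPM in shRBBP5 and had passed the threshold through the other libraries. LINC00910, called higher, was under 1 CPM in NTC, at 0.77, and had likewise passed through the other libraries. The share called lower was 5.32%, against 2.7% of all features and 8.84% of the coding named genes. The share called higher was 2.13%, against 1.72% and 2.13%. These shares again lay between or near the backgrounds. The median log2 ratio was −0.23 over the members, −0.20 over the coding named genes and 0.01 over all features. Under total-count or upper-quartile scaling 1 member was called higher and 7 lower, so 12.5% of calls were higher against 28.6% with TMM. Both knockdown comparisons use the same NTC library, so a value particular to that library enters both, and they are given side by side only.

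Set directly against each other, shHKDC1 had 5 members called higher and 14 lower than shRBBP5, with 75 neither. Of the 14 lower members, 10 were under 1 CPM in shHKDC1 and had passed the threshold through the other libraries. The share called higher was 5.32%, against 7.59% of all features and 11.6% of the coding named genes. The share called lower was 14.9%, against 10.2% and 18.3%. The higher share was under both backgrounds and the lower share between them. Total-count scaling gave 16.0% of calls higher and upper-quartile scaling 35%, against 26.3% with TMM. The higher members were JAKMIP1-DT, LINC00673, LINC00648, LINC00491 and WASIR2. Of these, only LINC00673 reached 1 CPM in shRBBP5, at 1.26. JAKMIP1-DT (0.414), LINC00648 (0.696), LINC00491 (0.608) and WASIR2 (0.765) were under it there and had passed the threshold through the other libraries. The median log2 ratio was −0.07 over members, −0.17 over the coding named genes and −0.04 over all features.

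**Figure D2:**
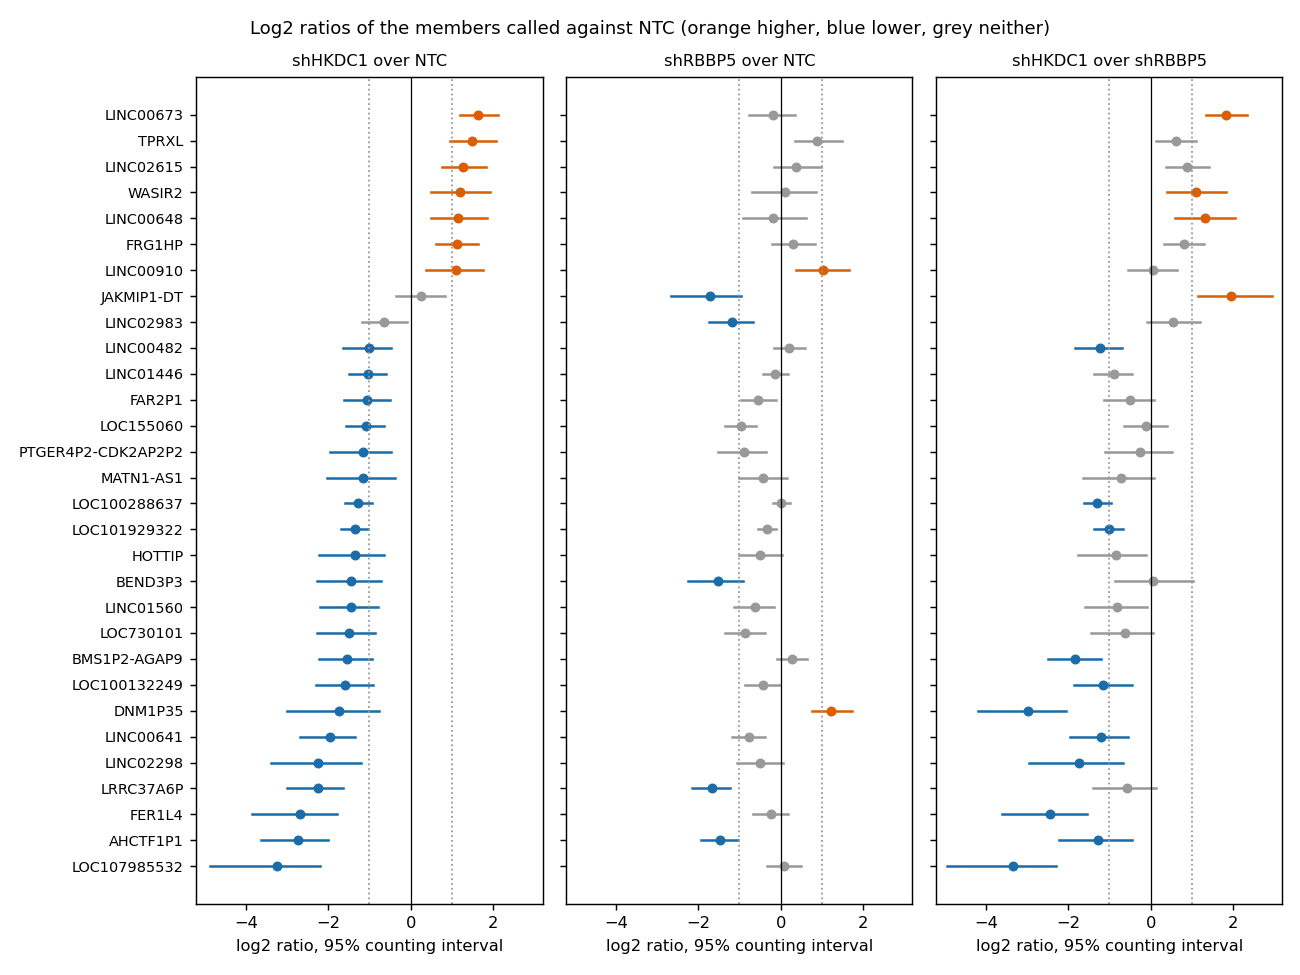
Log2 ratios with 95% counting intervals for the same 30 members in the 3 comparisons; orange marks members called higher, blue lower and grey neither, and dotted lines mark a 2-fold ratio. Most members called in shHKDC1 have grey points in the shRBBP5 panel, while JAKMIP1-DT and LINC02983 are called only there among the comparisons with NTC.

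MicroRNA precursors came first among roles. Host genes are transcribed as long RNAs from which microRNA hairpins are excised. By RefSeq position, 5 members span 10 microRNA hairpin genes with 19 mature products. They are the 4 named hosts and LOC107985532, which RefSeq classes as a transcribed pseudogene. LOC107985532 spans MIR301B and MIR130B on chromosome 22, and the mature 3p products of the pair are shown because they share a seed. The seed, bases 2 to 8, which sets most target pairing, is in capitals (RefSeq, GRCh38.p14, plus strand, chr22:21653025-21653047 and chr22:21653354-21653375).
hsa-miR-301b-3p: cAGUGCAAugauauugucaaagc
hsa-miR-130b-3p: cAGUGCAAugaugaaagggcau

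LOC107985532 was at 2.42 CPM in NTC, 0.252 CPM in shHKDC1 and 2.57 CPM in shRBBP5, from 106, 6 and 102 fragments. NTC and shRBBP5 were level and shHKDC1 stood far below both. Its log2 ratio over NTC was −3.24 [−4.86, −2.21] in shHKDC1, the lowest of all members, and 0.09 [−0.33, 0.49] in shRBBP5. It was chosen for description after its values were seen, as its mean CPM was 1.75. LOC107985532 was matched to MIR301B and MIR130B by position only, with strands not compared. Whether its RNA is their precursor was not tested. The mature microRNAs were not measured in this table, and a precursor level need not follow them.

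MIR23AHG, on chromosome 19, carries the miR-23a, miR-27a and miR-24-2 hairpins. It was at 8.45 CPM in NTC, 11.1 CPM in shHKDC1 and 9.68 CPM in shRBBP5, log2 0.40 [0.17, 0.63] and 0.20 [−0.01, 0.41]. MIR194-2HG, on chromosome 11, carries miR-192 and miR-194, which are abundant in liver and gut. It was at 1.9 CPM in NTC, 1.05 CPM in shHKDC1 and 1.94 CPM in shRBBP5, so shHKDC1 alone was low, at log2 −0.84 [−1.54, −0.22] over NTC. It was not called with TMM scaling, although total-count scaling brought it to −1.122. MIR9-3HG was at 2.78 CPM in NTC, 3.35 CPM in shHKDC1 and 2.17 CPM in shRBBP5, and MIR193BHG at 0.964, 0.823 and 1.46. Of the 4 named hosts, 0 were called in any comparison. In shHKDC1 over NTC, 7.96% of all features were called higher and 12.1% lower, so 0 of 4 shows nothing particular to hosts. The main products of MIR194-2HG and of the MIR23AHG hairpins miR-23a and miR-27a, shown for comparison, have 4 different seeds, none of them the seed of the LOC107985532 pair.
hsa-miR-192-5p: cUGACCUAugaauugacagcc
hsa-miR-194-5p: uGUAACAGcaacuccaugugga
hsa-miR-23a-3p: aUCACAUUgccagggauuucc
hsa-miR-27a-3p: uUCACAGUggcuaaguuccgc

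HOTTIP was the listed regulatory lncRNA with a call. It is transcribed from the 5′ end of the HOXA cluster next to HOXA13, and its RNA is known to bind WDR5, a partner of RBBP5 in the lysine 4 methyltransferase complexes. It was at 1.83 CPM in NTC, 0.716 CPM in shHKDC1 and 1.29 CPM in shRBBP5, from 80, 18 and 52 fragments. The log2 ratio over NTC was −1.35 [−2.22, −0.64] in shHKDC1, a call, and −0.50 [−1.02, 0.04] in shRBBP5, whose interval held 0. Between the knockdowns it was −0.84 [−1.76, −0.11], not called, and −1.052 under total-count scaling. HOXA13 had no row of its own. TTN-AS1, antisense to the titin gene, was at 1.62 CPM in NTC, 1.36 CPM in shHKDC1 and 1.55 CPM in shRBBP5, and each of its 3 intervals held 0.

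LINC00673, a LINC lncRNA studied in several cancers, was the member with the highest ratio in shHKDC1. It was at 1.44 CPM in NTC, 4.47 CPM in shHKDC1 and 1.26 CPM in shRBBP5, from 63, 116 and 50 fragments. Only shHKDC1 was raised, at log2 1.64 [1.19, 2.11] over NTC and 1.83 [1.35, 2.35] over shRBBP5. LINC02615 was at 1.15, 2.77 and 1.5 CPM in the same order, log2 1.26 [0.75, 1.84] in shHKDC1 over NTC. LINC00648 was at 0.788, 1.73 and 0.696 CPM, with log2 1.14 [0.49, 1.85]. Like LINC00673, these stood highest in shHKDC1. LINC00910 was also highest in shHKDC1 but with shRBBP5 close to it, at 0.77 CPM in NTC, 1.65 CPM in shHKDC1 and 1.57 CPM in shRBBP5. It was called higher in both knockdown libraries, at log2 1.09 [0.38, 1.76] and 1.02 [0.38, 1.65] over the shared NTC library, where it rested on 34 fragments. Under total-count scaling LINC02615 was at 0.986, LINC00648 at 0.859 and LINC00910 at 0.817 and 0.952, below 2-fold, while LINC00673 kept its call.

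LINC01128 had the highest mean CPM of all members, 11.6, which is not adjusted for transcript length. It was at 9.37 CPM in NTC, 15.2 CPM in shHKDC1 and 10.3 CPM in shRBBP5, so shHKDC1 stood above both others by less than 2-fold, at log2 0.70 [0.49, 0.90] over NTC. LINC00999 was at 6.92, 8.22 and 8.17 CPM. LINC00689 was at 4.43, 4.21 and 2.75 CPM, low only in shRBBP5 at log2 −0.69 [−1.03, −0.34] over NTC.

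On the lower side, LINC00641 was at 3.54 CPM in NTC, 0.9 CPM in shHKDC1 and 2.09 CPM in shRBBP5. NTC was highest, shHKDC1 lowest and shRBBP5 between them, with log2 −1.97 [−2.69, −1.35] in shHKDC1 and −0.76 [−1.17, −0.37] in shRBBP5 over NTC, the latter uncalled. LINC02298 was at 1.62, 0.339 and 1.14 CPM, log2 −2.24 [−3.40, −1.21] in shHKDC1, from only 9 fragments there. LINC01560 was at 2.36, 0.861 and 1.52 CPM, log2 −1.45 [−2.20, −0.79]. In these 3 LINC genes, shRBBP5 lay between the other libraries. LINC01560 overlaps the coding gene ZNF41, at 4.46, 3.2 and 2.8 CPM, and whether reads were shared between them was not tested. LINC01446, at 4.53, 2.21 and 4.14 CPM, and LINC00482, at 2.71, 1.34 and 3.13 CPM, were low in shHKDC1 alone. Their log2 ratios of −1.04 [−1.49, −0.60] and −1.02 [−1.64, −0.48] sat at the 2-fold line, and with upper-quartile scaling they were −0.957 and −0.938, no longer calls. LINC02983 was the LINC gene called lower in shRBBP5, at 2.52, 1.62 and 1.11 CPM, log2 −1.18 [−1.73, −0.67] over NTC. LINC00491 was called only between the knockdowns, at 0.953, 1.51 and 0.608 CPM, and LINC00663, at 0.993, 0.648 and 1.45 CPM, was its opposite there. Over the 27 LINC members, 4 were called higher in shHKDC1 over NTC, 14.8% against 7.96% of all features and 8.13% of the coding named genes. The 5 called lower were 18.5%, against 12.1% and 23.5%, and the median log2 ratio was −0.07.

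Promoter windows from RefSeq (GRCh38.p14, 250 bases before to 50 after the annotated start) matched 35 of the 94 members. All 35 are lncRNAs, so the motif shares below do not cover the transcribed pseudogenes. They were searched on both strands for GGGCGG (the GC box), for CCAAT (the CCAAT box), for TATAAA (the TATA box) and for CACGTG (an E-box). The GC box was in 20 windows, 57.1%, against 45% of 35116 promoters. The CCAAT box was in 17, 48.6% against 34.6%. The TATA box was in 8, 22.9% against 11.5%, and the E-box in 0 against 7.26%. The near-identical windows of FAM88C and FAM88D both count among those with a CCAAT box and a TATA box. Of the 8 matched members called lower in shHKDC1, 7 held a GC box, as did 1 of the 3 called higher and 12 of the 24 called neither. A match is a description of letters and no evidence of binding, and these groups are small. The windows of HOTTIP (chr7:27200171-27200470 on the plus strand), LINC00673 (chr17:72592755-72593054 on the minus strand) and LINC00641 (chr14:21206851-21207150 on the minus strand) are shown as 3 of the called lncRNAs with a window, chosen after their values were seen. HOTTIP is the called one of the listed regulatory lncRNAs, LINC00673 had the highest ratio in shHKDC1, and LINC00641 had the lowest of the LINC members with a mean of at least 2 CPM. They are not typical of their groups, since LINC00641 is the 1 matched lower member without a GC box and LINC00673 the 1 matched higher member that has it. Capitals mark the searched motifs on either strand, so that CCGCCC is the GC box and ATTGG the CCAAT box as read on the opposite strand.
HOTTIP: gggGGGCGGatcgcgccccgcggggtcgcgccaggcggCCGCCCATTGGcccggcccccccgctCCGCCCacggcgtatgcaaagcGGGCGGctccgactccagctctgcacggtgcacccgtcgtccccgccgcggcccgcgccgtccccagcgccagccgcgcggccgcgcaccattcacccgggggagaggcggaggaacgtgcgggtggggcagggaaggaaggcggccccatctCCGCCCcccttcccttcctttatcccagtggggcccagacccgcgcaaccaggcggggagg
LINC00673: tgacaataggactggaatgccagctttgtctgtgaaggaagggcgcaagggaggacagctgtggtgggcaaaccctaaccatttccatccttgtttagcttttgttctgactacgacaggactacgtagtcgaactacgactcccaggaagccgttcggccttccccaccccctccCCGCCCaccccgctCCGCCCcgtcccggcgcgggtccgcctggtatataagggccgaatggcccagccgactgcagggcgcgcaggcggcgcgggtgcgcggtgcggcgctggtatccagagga
LINC00641: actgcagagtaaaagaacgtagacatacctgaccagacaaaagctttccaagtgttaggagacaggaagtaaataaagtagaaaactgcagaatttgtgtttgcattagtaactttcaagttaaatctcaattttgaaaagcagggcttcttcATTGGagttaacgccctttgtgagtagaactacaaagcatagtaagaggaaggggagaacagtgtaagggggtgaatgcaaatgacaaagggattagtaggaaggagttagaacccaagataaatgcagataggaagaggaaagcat

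HOTTIP's window was the richest in CG dinucleotides of the 3, with 41 and 78% G or C. LINC00673's window held 26 and 63.3%, with GC boxes close before the start. LINC00641's window held 2 and 39%, with a single CCAAT box and no GC box. Over the 8 matched members called lower the median was 24 CG dinucleotides and 66% G or C, over the 3 called higher 13 and 55%, and over the 24 called neither 12 and 59.2%.

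**Figure D3:**
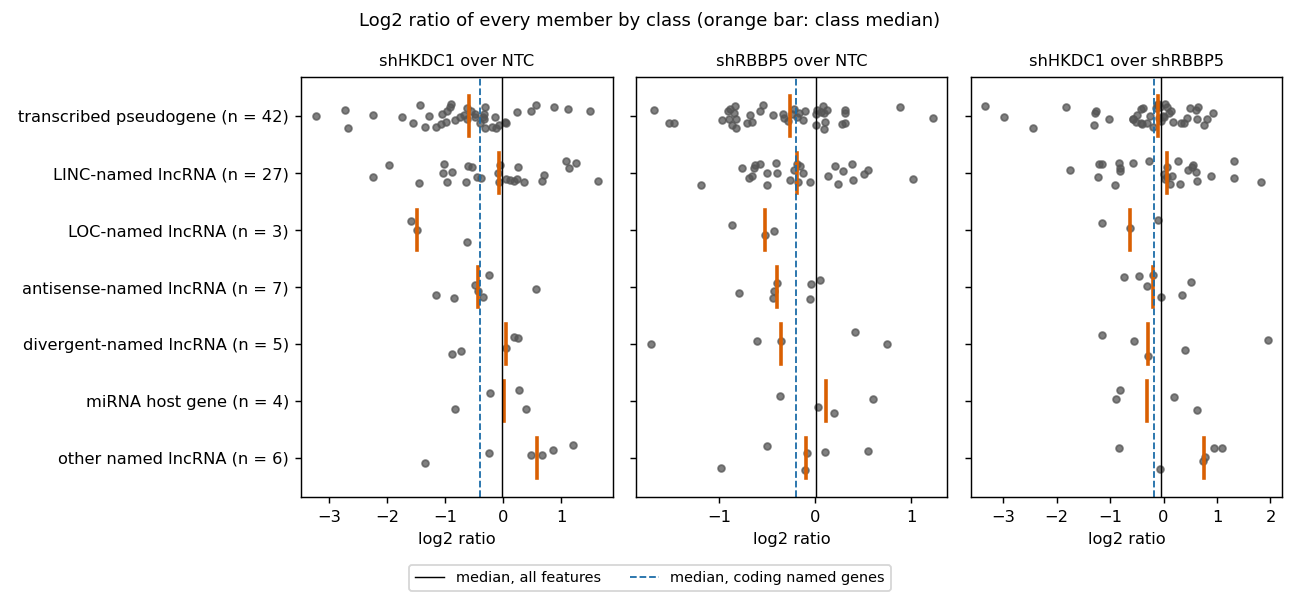
Log2 ratio of each of the 94 members by class in the 3 comparisons, 1 point per member; orange bars are class medians, the black line is the median of all features and the dashed blue line that of the coding named genes. In shHKDC1 over NTC the pseudogene median was −0.60 and the LINC median −0.07, on either side of the coding median of −0.40.

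Transcribed pseudogenes were the largest class. Of the 42, 12 were called lower in shHKDC1 over NTC, 28.6% against 12.1% of all features and 23.5% of the coding named genes. The 2 called higher were 4.76%, against 7.96% and 8.13%, and the class median was −0.60. In shRBBP5 over NTC, 3 were called lower, 7.14% against 2.7% and 8.84%, and 1 higher, 2.38% against 1.72% and 2.13%, with a median of −0.26. Between the knockdowns, 8 were called lower, 19% against 10.2% and 18.3%, and 0 higher, against 7.59% and 11.6%. The lower shares were near those of the coding named genes. How far reads of the parent genes entered these rows was not tested, and each value is uncertain to that extent.

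LOC100288637 and LOC101929322 were the called pseudogenes with the highest CPM. LOC100288637 was at 9.37 CPM in NTC, 3.85 CPM in shHKDC1 and 9.48 CPM in shRBBP5, from 410, 100 and 378 fragments. Only shHKDC1 was low in the sum, at log2 −1.28 [−1.60, −0.95] over NTC. Its 3 transcript rows did not move together. They read 0.856, 3.8 and 3.1 CPM, 4.33, 0.0484 and 2.9 CPM, and 4.18, 0 and 3.48 CPM. The first row thus rose in shHKDC1 while the others fell, and how reads were divided among them was not tested. LOC100288637 overlaps ARHGAP11B, a human-specific gene known from cortical progenitor cells, whose rows read 3.89, 1.22 and 2.69 CPM. Summed, the pair read 13.3, 5.07 and 12.2 CPM, log2 −1.39 [−1.67, −1.11] in shHKDC1 over NTC, also called lower. LOC101929322 was at 9.31, 3.64 and 7.39 CPM, again low in shHKDC1, at log2 −1.35 [−1.70, −1.03]. Against shRBBP5 its ratio of −1.02 [−1.37, −0.68] was a call with TMM, −0.999 with DESeq2 size factors and −0.908 with upper-quartile factors, so that call rested on the scaling.

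The read-through gene BMS1P2-AGAP9 shows the limit of such sharing. It joins a pseudogene of BMS1, a ribosome assembly factor, to AGAP9, so reads can fit both. Alone it was at 2.94 CPM in NTC, 0.997 CPM in shHKDC1 and 3.57 CPM in shRBBP5, called lower at log2 −1.55 [−2.22, −0.93] in shHKDC1 over NTC. AGAP9's rows read 1.5, 2.25 and 0.0564 CPM, the last under the level of 3 fragments. Summed, the pair read 4.44, 3.24 and 3.62 CPM, log2 −0.45 [−0.83, −0.07], and no comparison gave a call. The lower call of BMS1P2-AGAP9 was therefore lost when the reads of both genes were pooled.

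AHCTF1P1, a copy of the nuclear pore gene AHCTF1, was at 3.98 CPM in NTC, 0.59 CPM in shHKDC1 and 1.43 CPM in shRBBP5. LRRC37A6P, of the LRRC37 family of leucine-rich repeat genes, was at 4.14, 0.871 and 1.3 CPM. In both, NTC stood above both knockdown libraries and shHKDC1 was lowest. AHCTF1P1 had log2 −2.74 [−3.64, −2.01] in shHKDC1 and −1.47 [−1.93, −1.04] in shRBBP5 over NTC. For LRRC37A6P the ratios were −2.24 [−3.00, −1.64] and −1.67 [−2.15, −1.22]. BEND3P3, a copy of the chromatin protein gene BEND3, was at 1.91, 0.697 and 0.664 CPM, with the knockdown libraries level. Its log2 ratios were −1.44 [−2.28, −0.71] and −1.52 [−2.25, −0.91]. All 6 ratios were calls, and each was taken against the same NTC library.

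FER1L4, a pseudogene of the ferlin family of membrane fusion proteins, was low in shHKDC1 alone. It was at 2.58 CPM in NTC, 0.397 CPM in shHKDC1 and 2.18 CPM in shRBBP5, from 113, 10 and 87 fragments. The log2 ratio was −2.68 [−3.84, −1.80] over NTC and −2.44 [−3.60, −1.55] over shRBBP5. DNM1P35, a copy of the dynamin gene DNM1, was the member called lower in one knockdown library and higher in the other, both against the same NTC library. It was at 1.22 CPM in NTC, 0.358 CPM in shHKDC1 and 2.85 CPM in shRBBP5. The log2 ratio over NTC was −1.75 [−3.00, −0.76] in shHKDC1 and 1.23 [0.76, 1.74] in shRBBP5, and between the knockdowns −2.98 [−4.20, −2.06].

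Among smaller calls, FAR2P1, a copy of the fatty acyl-CoA reductase gene FAR2, was at 2.89, 1.38 and 1.98 CPM. LOC155060 was at 4.3, 2.03 and 2.19 CPM, with both knockdown libraries low. Their ratios in shHKDC1 were −1.06 [−1.62, −0.50] and −1.08 [−1.56, −0.64], and −0.978 and −0.999 with upper-quartile scaling, which ended both calls. In shRBBP5, LOC155060 was at −0.97 [−1.36, −0.60], and at −1.007 with upper-quartile scaling, a call. LOC102723753 was called only between the knockdowns, at 3.21 CPM in NTC, 1.64 CPM in shHKDC1 and 3.99 CPM in shRBBP5, log2 −1.28 [−1.82, −0.80]. PTGER4P2-CDK2AP2P2, a read-through of a pair of pseudogenes, was at 1.84, 0.823 and 0.984 CPM, called lower in shHKDC1 at −1.16 [−1.95, −0.48]. The LOC-named lncRNAs LOC100132249 and LOC730101 were also called lower in shHKDC1, at −1.59 [−2.29, −0.92] and −1.49 [−2.27, −0.86].

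The 2 pseudogenes called higher in shHKDC1 than in NTC were TPRXL and FRG1HP. TPRXL, a copy within the tetrapeptide repeat homeobox family, was at 1.02 CPM in NTC, 2.86 CPM in shHKDC1 and 1.87 CPM in shRBBP5, log2 1.49 [0.95, 2.08] and 0.88 [0.35, 1.48] over NTC. FRG1HP, a copy of FRG1 from the region tied to facioscapulohumeral muscular dystrophy, was at 1.37, 2.98 and 1.7 CPM, log2 1.12 [0.62, 1.63]. In each, shHKDC1 was highest and NTC lowest. Total-count scaling left TPRXL called and put FRG1HP at 0.844. NKAPP1 had the same order, at 1.6, 2.93 and 1.74 CPM, without reaching 2-fold.

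Small pseudogene families were described by their sums and single copies. The 3 copies of WHAMM, an actin nucleation factor, summed to 9.49 CPM in NTC, 6.61 CPM in shHKDC1 and 8.15 CPM in shRBBP5. In shHKDC1 over NTC all 3 had log2 ratios below 0, at −0.33 for WHAMMP2, −0.49 for WHAMMP3 and −0.74 for WHAMMP4. In shRBBP5 over NTC they were at 0.10, 0.01 and −0.86. The sign of WHAMMP3 in shRBBP5 turned with total-count and upper-quartile scaling, at −0.06 and −0.02. The 3 copies of FAM86, a family of protein lysine methyltransferases, summed to 7.03, 6.67 and 4.84 CPM. Of these, FAM86EP was lowest in shRBBP5, at 4.51, 3.96 and 2.55 CPM, and FAM86FP was highest in shHKDC1, at 1.03, 1.52 and 0.965 CPM. In shRBBP5 over NTC all 3 FAM86 copies had log2 ratios below 0, at −0.82 for FAM86EP, −0.10 for FAM86FP and −0.17 for FAM86HP. TPTEP1 and TPTE2P3, copies of TPTE-family phosphatases, were at 1.99, 2.76 and 2.12 CPM and at 2.66, 2.76 and 1.45 CPM. None of these 8 copies was called with TMM scaling. In shHKDC1 over NTC, 7.96% of all features were called higher and 12.1% lower, so this shows nothing particular to the 8.

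FAM88C and FAM88D were close to each other in every library. FAM88C was at 0.93 CPM in NTC, 1.68 CPM in shHKDC1 and 0.878 CPM in shRBBP5, and FAM88D at 0.947, 1.51 and 0.884. Their promoter windows share an identical run of 296 bases, so the pair are near-identical copies over that stretch and how reads were shared between them cannot be told from this table. Summed they read 1.88, 3.19 and 1.76 CPM, with shHKDC1 highest. Other copies of known coding genes showed no call, among them CCT6P3 (a chaperonin subunit) at 2.6, 2.03 and 2.71 CPM, YWHAEP1 (14-3-3 epsilon) at 1.88, 0.987 and 1.05 CPM, and RPL23AP53 (a ribosomal protein) at 1.88, 1.21 and 1.18 CPM.

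Of the 7 antisense members, 1 was called lower in shHKDC1 over NTC, MATN1-AS1, a share of 14.3% near the 12.1% of all features. None, 0 of 7, was called higher, against 7.96% of all features. It was at 1.48 CPM in NTC, 0.658 CPM in shHKDC1 and 1.1 CPM in shRBBP5, log2 −1.16 [−2.04, −0.39]. The strand setting of the counting is not given in the sources used here, so reads of an antisense gene and of its coding partner cannot be told apart. ATXN1-AS1 was at 1.77, 0.978 and 1.35 CPM while ATXN1, the ataxin-1 gene it overlaps, was at 13.1, 21.1 and 11.5 CPM. The member was thus lower in shHKDC1 than in NTC, log2 −0.85 [−1.59, −0.21], and the coding gene higher, 0.68 [0.51, 0.86], both under 2-fold. TRAF3IP2-AS1 was at 3.7, 2.62 and 2.73 CPM and overlaps REV3L, which encodes the catalytic part of a translesion DNA polymerase, at 7.72, 2.26 and 5.86 CPM. The pair summed to 11.4, 4.89 and 8.59 CPM, log2 −1.22 [−1.52, −0.94] in shHKDC1 over NTC, while TRAF3IP2-AS1 alone was at −0.49 [−0.92, −0.07]. RASSF8-AS1 was the antisense member above NTC in shHKDC1, at 1.62, 2.39 and 1.67 CPM, log2 0.56 [0.05, 1.08]. By RefSeq gene order, 43 of the 93 members placed on the assembly overlap a coding gene or lie within 5 kb of one, and 13 have such a neighbour that was itself measured.

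With TMM scaling the 5 divergent transcripts had no call in shHKDC1 over NTC, where 7.96% of all features were called higher and 12.1% lower. Total-count scaling called DNAJC3-DT and FZD4-DT lower there, at −1.164 and −1.007. In shRBBP5 over NTC, 1 of the 5 was called lower, against 2.7% of all features. Between the knockdowns, 1 was called higher and 1 lower, against 7.59% and 10.2%. So few genes show nothing particular to the class. JAKMIP1-DT was the exception in shRBBP5, at 1.36 CPM in NTC, 1.62 CPM in shHKDC1 and 0.414 CPM in shRBBP5, from 60, 42 and 16 fragments. Only shRBBP5 was low, at log2 −1.71 [−2.67, −0.96] over NTC, the lowest ratio of any member in that comparison. The direct ratio of shHKDC1 over shRBBP5 was 1.96 [1.16, 2.95]. JAKMIP1 itself, whose start lies beside it, was listed at 0 CPM in all 3 libraries. FZD4-DT, beside the Wnt receptor gene FZD4, was at 1.03, 0.619 and 1.38 CPM and was called lower in shHKDC1 than in shRBBP5, log2 −1.15 [−2.06, −0.33]. DNAJC3-DT, beside an endoplasmic reticulum chaperone gene, was at 2.23, 1.2 and 1.47 CPM, and LHX1-DT, beside a homeobox gene, at 0.793, 0.9 and 1.34 CPM. The divergent members therefore did not share a direction.

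Among the other named lncRNAs, WASIR2 was called higher in shHKDC1, at 0.713 CPM in NTC, 1.64 CPM in shHKDC1 and 0.765 CPM in shRBBP5. Its log2 ratio was 1.20 [0.50, 1.92] over NTC and 1.1 [0.40, 1.84] over shRBBP5, and both fell under 1 with total-count scaling, at 0.919 and 0.888. PCAT7, first described in prostate cancer, was at 6.95, 9.69 and 10.2 CPM, with both knockdown libraries above NTC by less than 2-fold. FOXCUT, transcribed upstream of the forkhead gene FOXC1, was at 1.93, 1.64 and 0.978 CPM. It was lowest in shRBBP5, at log2 −0.98 [−1.56, −0.41] over NTC, just short of a call that upper-quartile scaling gave at −1.011.

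Summing rows per gene changed what could be seen. The members had 158 transcript rows, of which 118 reached 100 units in some library. Of those, 15 rows of 14 genes were at 0 in another library, 12 of them in shHKDC1, 2 in NTC and 3 in shRBBP5, some of them in more than 1 library. After summing, 0 of the 94 members were at 0 in any library. RASSF8-AS1 shows why, with 1 transcript row at 0.896 CPM in NTC, 2.39 CPM in shHKDC1 and 0 CPM in shRBBP5, and its other row at 0.725, 0 and 1.67 CPM. For LOC100294145, 1 row took 98.7% of its NTC units, 0% of its shHKDC1 units and 99.1% of its shRBBP5 units, although the gene as a whole was at 3.09, 2 and 2.15 CPM. MRPS31P5, a copy of a mitochondrial ribosomal protein gene, had 89.2% of its NTC units and 91.4% of its shRBBP5 units on 1 row that was at 0 in shHKDC1, where another row took 69.8%. Its summed level was 4.37, 3.49 and 4.61 CPM, with no call. Differences between single transcript rows were therefore not read as differences between genes. LOC101929322 was called lower in shHKDC1 with a nearly constant split of its rows, 36.1% and 38.6% on the first row in NTC and shHKDC1, but all of its units in shRBBP5 stood on that row.

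**Figure D4:**
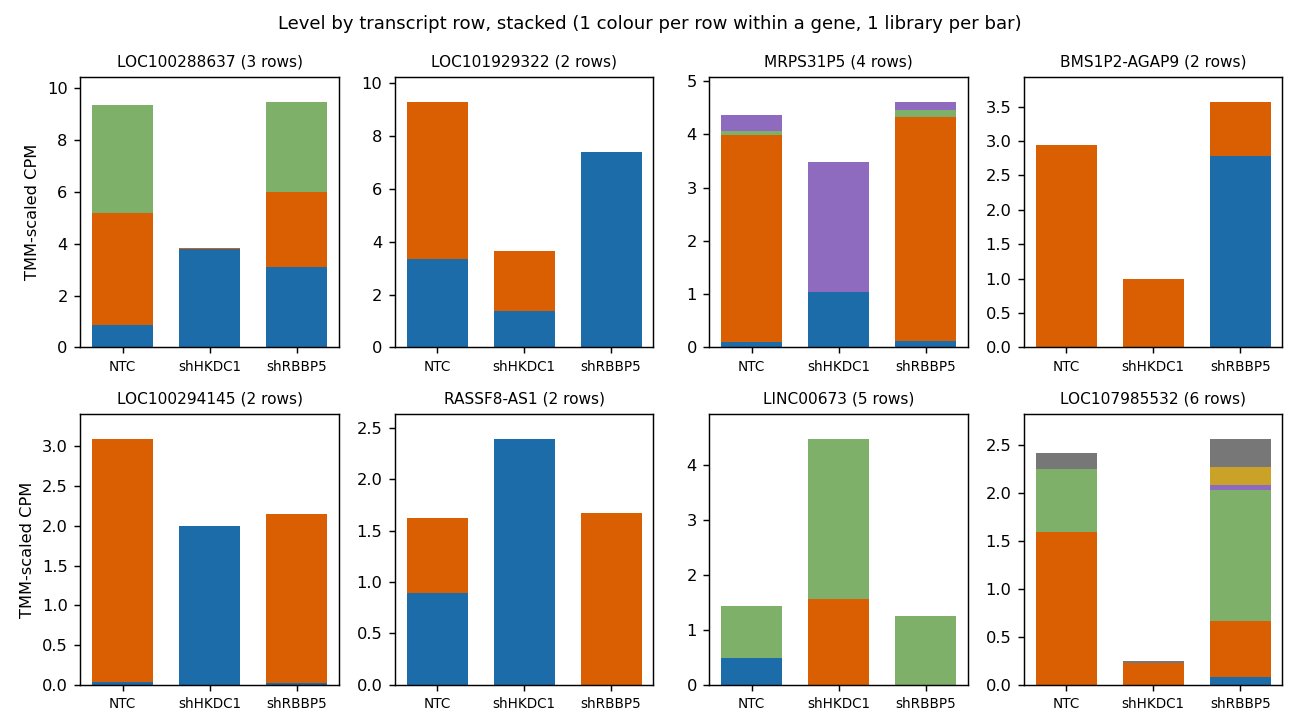
Level of 8 members by transcript row, stacked, with 1 bar per library in TMM-scaled CPM and 1 colour per row within a gene. For LOC100294145 the NTC and shRBBP5 bars are nearly all 1 row and the shHKDC1 bar the other, while the bar heights are 3.09 CPM in NTC, 2 CPM in shHKDC1 and 2.15 CPM in shRBBP5.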

How the data were processed

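RNA from PLC cells was sequenced in 3 libraries, 1 per group. Per the submitters' processing notes, the build was hg19 and the tools included StringTie 1.3.4, HISAT2 2.2.1 and DESeq2 1.28.1, without roles. The annotation, the strandedness and the program behind the counts were not given in the sources used here. In the table, the authors' deposited values are estimated counts, given per transcript or locus, with no scaling for depth or length. Its column abbreviations shHD and shRB were matched to shHKDC1 and shRBBP5. Of 43704 rows, 16301 were anonymous loci and 27403 RefSeq transcripts, of which 27357 were named and 46 were not, through a RefSeq table of GRCh38.p14; coordinates printed are those of the sequences in that build, not of the files.

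Rows were summed per symbol. TMM factors came from edgeR 4.0.16 in R 4.3.3 over all 28381 features and were 1.083, 0.894 and 1.032 for NTC, shHKDC1 and shRBBP5. Log2 ratios used a pseudocount of 0.5 units. Intervals came from a conditional binomial on fragments with Python 3.11.15, NumPy 2.4.6, SciPy 1.17.1 and pandas 2.3.3, and the procedure was tested on simulated data. No molecular identifiers are recorded, so fragments may not be independent and the intervals may be too narrow. The design had foreseen counts of reads; taking each unit as a fragment was tried as an alternative, as were other scalings, including size factors from DESeq2 1.42.0, other thresholds and subsets of members.

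The members and lists were chosen with earlier results of these data known. The naming rule took the 10 members with the highest mean CPM, up to 8 each way per comparison among called members with a mean of at least 2 CPM, the role lists and the genes next to the threshold. Other members, families, row examples and neighbours were chosen after their values were seen.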

Additional observations from a re-analysis of the deposited data

How the results depend on the processing

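Each of the 3 comparisons was recomputed under 12 alternatives. No call changed sign in the comparison in which it was made, but this outcome was fixed in advance. A call is at least 1 in size, and each scaling shifted all ratios of a comparison alike, by less than 1. Thresholds and subsets left the ratios unchanged. Uncalled ratios near 0 could change sign, as for LOC100288637 in shRBBP5 over NTC, 0.02 with TMM and −0.05 with total counts. Scaling by total counts gave 2 members higher, 33 lower and a median log2 ratio of −0.67 in shHKDC1 over NTC, and 1 higher in shRBBP5 over NTC; upper-quartile factors also gave 1 there. Restricting to the 6 members with a mean of at least 5 CPM gave 0 higher and 2 lower (median 0.32) in shHKDC1 over NTC, 0 and 0 with 0.16 in shRBBP5 over NTC, and 0 and 2 between the knockdowns. With a threshold of 0.5 CPM, 185 genes gave 23 higher and 41 lower, 5 and 20, and 19 and 27 in the same order. With no threshold, 1488 genes gave 108 and 81 with a median of 0.21, 22 and 56 with 0.09, and 109 and 58 with 0.61. Shares and medians over all features were not computed at these other thresholds, so the counts have no background beside them. Without pseudogenes, 52 members gave 9 lower in shHKDC1 over NTC, 1 higher and 2 lower in shRBBP5 over NTC, and 6 lower between the knockdowns. The thresholds and subsets change which genes are counted. The scalings shift all ratios of a comparison alike, which carries some of them across the 2-fold line. Why the scaling factors differ was not tested. LINC00482 also lost its call in shHKDC1 over NTC with DESeq2 size factors (−0.988) and a pseudocount of 5 units (−0.985). No paired analysis was possible because each group has 1 library. For the same reason no library could be left out of a group, and the counting intervals do not include variation between cultures.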
